A study of Mus musculus with 12 samples.

Results

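The transcripts of 10 neutrophil granule and calprotectin genes, Mpo, Elane, Ngp, Camp, Ltf, Lcn2, S100a8, S100a9, Retnlg and Mmp8, were followed by symbol across 12 RNA sequencing libraries of mouse meninges. They were 10 of 27574 genes that could be joined between the deposited files, and all 10 were among the 13944 genes tested. The libraries were labelled as monocytes, isolated from the meninges of male C57BL/6J mice with a magnetic monocyte isolation kit. In the MDMA, psilocybin and vehicle groups, mice went through chronic restraint stress for 18 days, received the drug or the vehicle, and were sampled 24 hours later. The unstressed group is titled as unstressed controls and carries no treatment label. Each of the 4 groups held 3 libraries. The labels give no dose or age and do not say whether a library came from 1 mouse or from a pool, so p-values measure only the spread between these samples, which may be technical. MDMA acts mainly by releasing serotonin from neurons, and psilocybin is converted in the body to psilocin, a serotonin receptor agonist.

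Neutrophils are made in bone marrow, and their granules are filled in sequence as the cell matures. The azurophil granule enzymes myeloperoxidase (Mpo) and neutrophil elastase (Elane) are transcribed first, in promyelocytes, and the specific granule proteins neutrophilic granule protein (Ngp), cathelicidin (Camp), lactoferrin (Ltf) and lipocalin 2 (Lcn2) follow in myelocytes and metamyelocytes. Neutrophil collagenase (Mmp8) and resistin-like gamma (Retnlg) belong to the late stages, in which the early messages have mostly gone. S100a8 and S100a9 encode the subunits of calprotectin, a calcium- and zinc-binding protein that fills the cytosol of neutrophils and is also made by monocytes. In mice, marrow of the skull lies next to the meninges and opens to them through channels in the bone.

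The libraries held from 807725 to 5136953 gene counts, and no molecular identifiers are stated, so counting intervals and bounds cover counting error only. Choroid plexus markers summed to between 12500 and 127000 CPM (counts over the library total, scaled to 1000000) in every library, while classical monocyte markers summed to between 242 and 1580 CPM. The classical monocyte markers Ly6c2 and Ccr2 had 0 and 1 counts in vehicle library 1. Of 4601 genes with a mean of at least 50 CPM, 149, 8 and 211 were at 0 in vehicle libraries 1, 2 and 3, and at most 7 were at 0 in any library of another group. The unstressed libraries were counted with RefSeq exons and the stressed libraries with an Ensembl-type annotation. The exons of Elane, Ngp, S100a9, Retnlg and Mmp8 are nearly the same in both, whereas Mpo, Camp, Ltf, Lcn2 and S100a8 had more exonic bases in GENCODE than in RefSeq, with Lcn2 farthest apart at 2623 against 853 bases. In such bulk samples, fewer cells of a type and less RNA per cell cannot be told apart.

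On GRCm38 (mm10), S100a8 and S100a9 lie near each other on chromosome 3, S100a8 from 90668978 to 90670035 on the plus strand and S100a9 from 90692632 to 90695721 on the minus strand. Camp (109847379 to 109849617), Ngp (110419747 to 110423012) and Ltf (111019271 to 111042767) lie close together on chromosome 9, where Mmp8 lies far from them at 7558456 to 7568485. Mpo is on chromosome 11 (87793581 to 87804413), Elane on chromosome 10 (79886247 to 79888215), Lcn2 on chromosome 2 (32384633 to 32388252) and Retnlg on chromosome 16 (48872621 to 48874496). Promoters are shown for an early gene, a specific granule gene and both calprotectin genes, since these genes were high and low in much the same libraries. Each runs 5′ to 3′ on the gene's strand, from 250 bases before to 50 bases after the RefSeq start in GRCm38.p6, at chr11:87793534-87793833 (+), chr9:110419558-110419857 (+), chr3:90668821-90669120 (+) and chr3:90695672-90695971 (-). Capitals mark matches on either strand to TTNNGNAA, a core of C/EBP binding sites, or GAGGAA, a core of PU.1 binding sites. C/EBP factors and PU.1 are transcription factors of granulocyte development.
Mpo: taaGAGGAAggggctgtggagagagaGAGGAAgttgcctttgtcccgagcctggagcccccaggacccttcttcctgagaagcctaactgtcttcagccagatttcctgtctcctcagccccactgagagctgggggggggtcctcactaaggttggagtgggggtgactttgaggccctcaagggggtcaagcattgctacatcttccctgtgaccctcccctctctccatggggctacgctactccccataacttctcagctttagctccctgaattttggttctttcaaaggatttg
Ngp: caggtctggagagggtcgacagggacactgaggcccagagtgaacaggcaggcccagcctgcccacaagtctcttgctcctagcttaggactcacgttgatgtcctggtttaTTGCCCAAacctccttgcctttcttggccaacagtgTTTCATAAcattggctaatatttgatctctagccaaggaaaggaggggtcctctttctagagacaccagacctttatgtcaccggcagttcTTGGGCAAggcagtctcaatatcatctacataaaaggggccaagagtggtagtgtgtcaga
S100a8: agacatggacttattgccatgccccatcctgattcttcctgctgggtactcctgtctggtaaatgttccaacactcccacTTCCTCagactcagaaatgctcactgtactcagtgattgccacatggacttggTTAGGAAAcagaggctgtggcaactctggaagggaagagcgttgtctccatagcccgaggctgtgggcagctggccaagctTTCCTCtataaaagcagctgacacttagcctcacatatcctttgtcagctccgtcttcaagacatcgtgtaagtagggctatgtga
S100a9: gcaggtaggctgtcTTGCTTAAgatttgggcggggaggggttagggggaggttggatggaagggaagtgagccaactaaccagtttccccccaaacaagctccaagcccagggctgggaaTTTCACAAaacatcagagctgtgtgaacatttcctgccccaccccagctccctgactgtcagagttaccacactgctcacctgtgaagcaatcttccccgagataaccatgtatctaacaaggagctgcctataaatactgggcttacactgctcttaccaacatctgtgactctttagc
TTNNGNAA was found in 7 of the 10 promoters (Ngp, Ltf, Lcn2, S100a8, S100a9, Retnlg and Mmp8) and in 40.7% of 32851 RefSeq promoters of the same length. GAGGAA was found in 6 of the 10 (Mpo, Elane, Ltf, Lcn2, S100a8 and Mmp8) and in 28.3% of all. The palindrome TTGCGCAA, itself a case of TTNNGNAA, was in none of the 10 and in 0.183% of all promoters. The Camp promoter held none of these letters in its window. These are letter matches only, and say nothing of binding.

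Summed over the 10 genes, transcripts were most abundant in the MDMA libraries. The sum was 2680, 576 and 2300 CPM in MDMA libraries 1, 2 and 3, against 109, 194 and 1090 CPM in psilocybin, 133, 224 and 92.1 CPM in vehicle and 65.4, 45.6 and 26 CPM in unstressed libraries. The means were 1850 ± 1120 CPM in the MDMA group, 463 ± 541 in the psilocybin group, 150 ± 67.6 in the vehicle group and 45.7 ± 19.7 in the unstressed group (SD, n = 3 each). All MDMA libraries lay above all vehicle and unstressed libraries, and psilocybin library 3 lay above MDMA library 2. The 10 genes took from 0.0576% to 0.268% of the counts in the MDMA libraries and from 0.0026% to 0.00654% in the unstressed libraries.

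**Figure D1:**
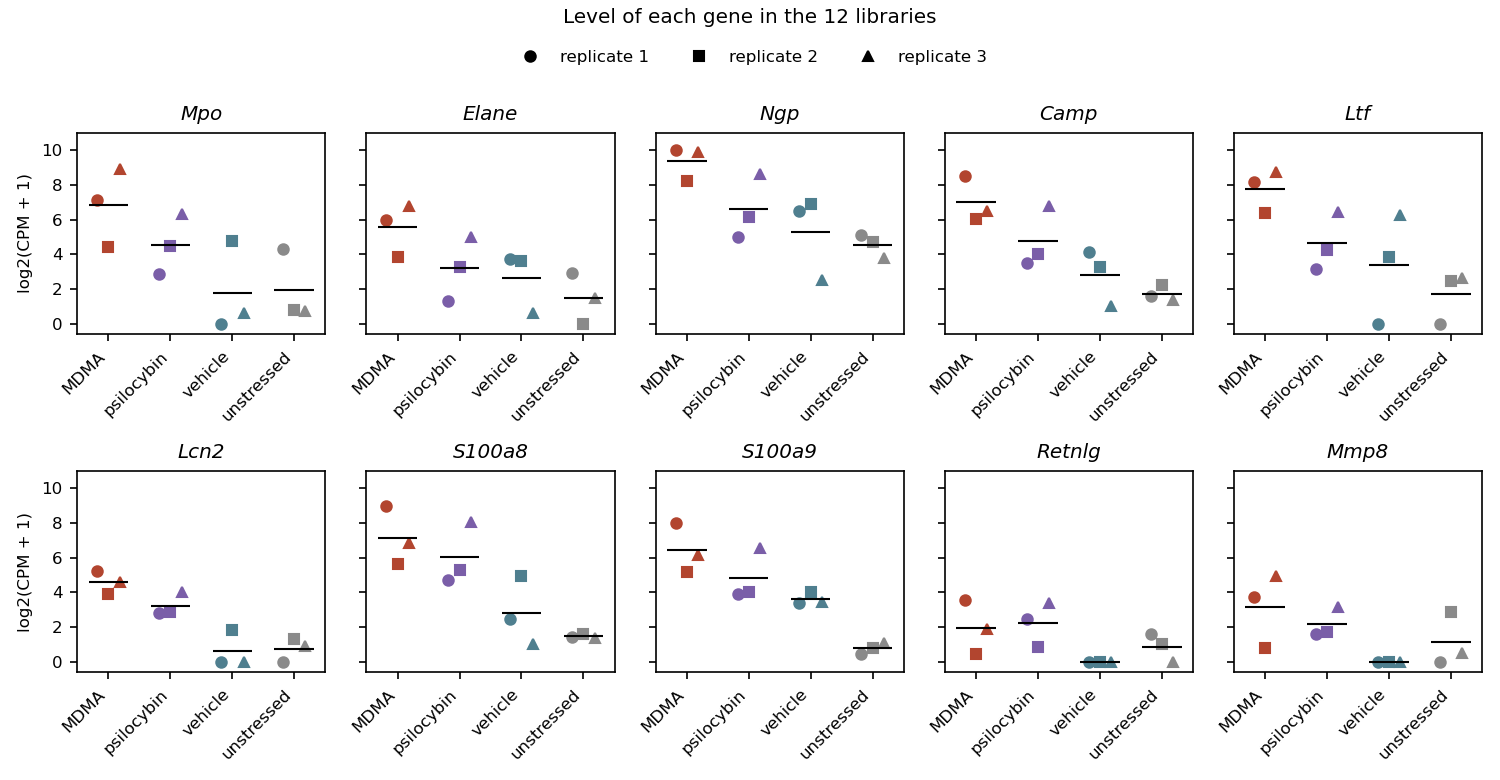
Level of each of the 10 genes as log2(CPM + 1) in the 12 libraries (vertical axis) by group (horizontal axis), with 1 marker per library and a line at the group mean of the log values. MDMA libraries 1 and 3 and psilocybin library 3 carried high values of most genes, and Retnlg and Mmp8 stood at 0 in all 3 vehicle libraries.

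Markers of some other cell types were high in the same libraries. The 9 erythroid markers in the files summed to 242, 21.3 and 161 CPM in MDMA, 29.6, 4.61 and 205 CPM in psilocybin, 30.4, 61.9 and 0.512 CPM in vehicle and 6.78, 11.2 and 2.66 CPM in unstressed libraries. All 9 had counts in MDMA libraries 1 and 3 and psilocybin library 3, while Car1 and Hemgn, which encode a carbonic anhydrase and a nuclear protein of red cell precursors, were at 0 in every vehicle and unstressed library. The 8 eosinophil markers summed to 42.6, 23.1 and 129 CPM in MDMA, 7.1, 1.92 and 60.1 CPM in psilocybin, 0, 2.48 and 1.02 CPM in vehicle and 1.36, 2.49 and 1.33 CPM in unstressed libraries, and Epx, which encodes eosinophil peroxidase, was at 0 in every vehicle and unstressed library. The 10 classical monocyte markers summed to 1050, 632 and 1580 CPM in MDMA, 266, 273 and 709 CPM in psilocybin, 242, 421 and 673 CPM in vehicle and 597, 580 and 628 CPM in unstressed libraries. The 12 cell division genes summed to 360 ± 153 CPM in the MDMA group, 159 ± 94.6 in the psilocybin group, 159 ± 97.7 in the vehicle group and 123 ± 56.4 in the unstressed group (SD, n = 3 each). The 9 fibroblast markers summed to 6980, 8860 and 13400 CPM in MDMA, 4430, 2200 and 4290 CPM in psilocybin, 1860, 2910 and 5680 CPM in vehicle and 3760, 6650 and 4690 CPM in unstressed libraries, so that every MDMA library lay above all others. The 10 choroid plexus markers summed to 22800 to 44500 CPM in MDMA, 64600 to 118000 CPM in psilocybin, 12500 to 127000 CPM in vehicle and 15200 to 39800 CPM in unstressed libraries, with every MDMA library below every psilocybin library. The part of these cell types in the results on the 10 genes was not tested.

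**Figure D2:**
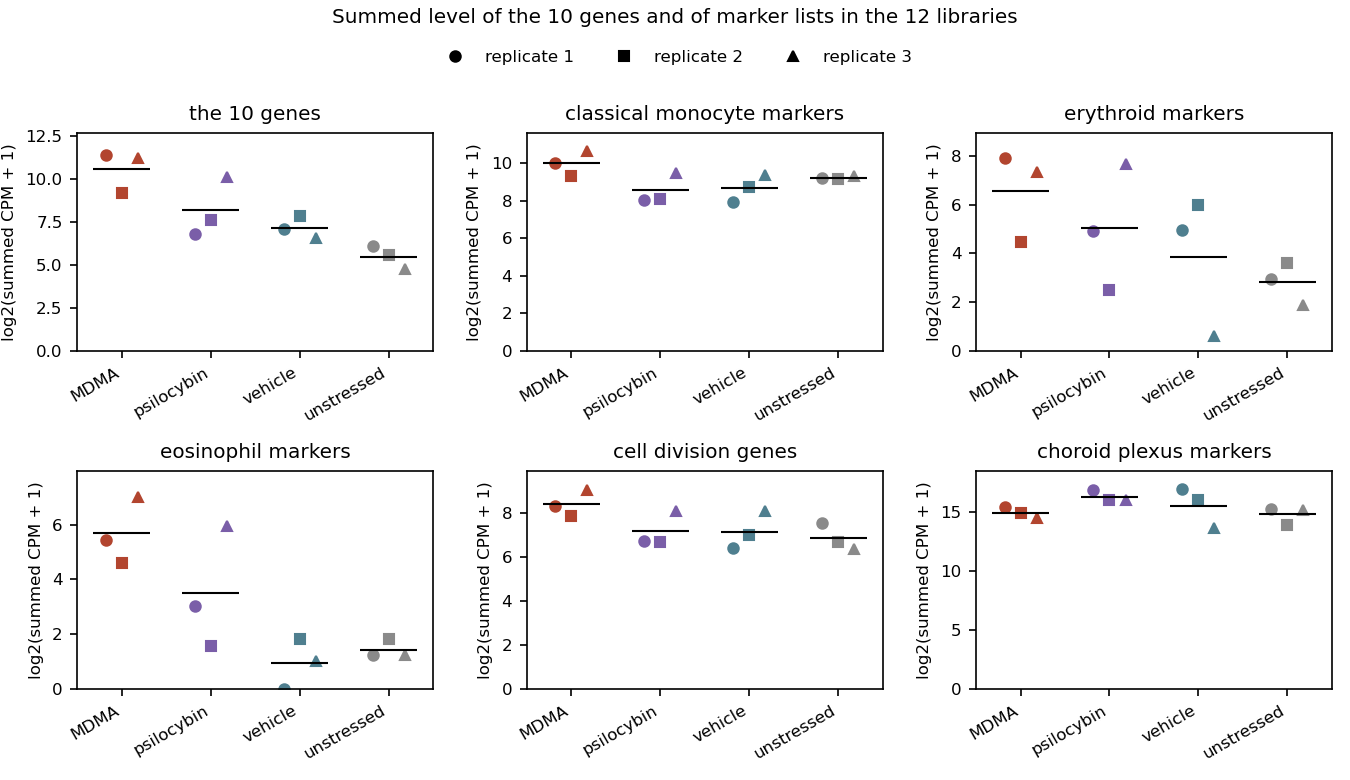
Summed level of the 10 genes and of 5 marker lists as log2(summed CPM + 1) (vertical axes, each with its own scale from 0) by group (horizontal axis), with 1 marker per library and a line at the group mean of the log values. The erythroid and eosinophil sums were high in MDMA libraries 1 and 3 and psilocybin library 3, where the sum of the 10 genes was high too.

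The early azurophil genes varied widely between libraries of 1 group. Mpo, which encodes the enzyme that makes hypochlorous acid, had 138, 20.6 and 479 CPM in MDMA libraries, against 6.22, 21.1 and 78.9 CPM in psilocybin, 0, 26 and 0.512 CPM in vehicle and 19, 0.748 and 0.666 CPM in unstressed libraries. The 479 CPM of MDMA library 3 rested on 2461 counts, and vehicle library 2 lay above MDMA library 2, so the MDMA and vehicle groups overlapped. Elane, which encodes the serine protease neutrophil elastase, had 62.5, 13.6 and 108 CPM in MDMA, 1.48, 8.46 and 30.9 CPM in psilocybin, 12.1, 11.1 and 0.512 CPM in vehicle and 6.44, 0 and 1.78 CPM in unstressed libraries. Here all MDMA libraries lay above all vehicle and unstressed libraries. Vehicle library 1 had 44 counts of Elane and 0 of Mpo, and unstressed library 1 had 56 of the group's 62 Mpo counts. The log2 difference of MDMA from vehicle was 4.70 ± 1.83 (SE) for Mpo and 2.80 ± 1.45 for Elane (edgeR adjusted p = 0.197 and 0.362), and that of MDMA from unstressed was 4.86 ± 1.81 and 4.37 ± 1.56 (edgeR adjusted p = 0.642 and 0.579).

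Of the specific granule genes, Ngp, a cystatin-like granule protein, was the most abundant of the 10 genes in counts. It had 1020, 298 and 947 CPM in MDMA libraries, against 31.1, 69.6 and 387 CPM in psilocybin, 90, 118 and 4.61 CPM in vehicle and 33.9, 25.2 and 12.9 CPM in unstressed libraries. The MDMA libraries all lay above the vehicle and unstressed libraries, and psilocybin library 3 lay above MDMA library 2. The log2 difference from vehicle was 3.32 ± 0.99 in the MDMA group (SE, edgeR adjusted p = 0.101) and 1.16 ± 0.92 in the psilocybin group (edgeR adjusted p = 0.61). Camp, the precursor of the antimicrobial peptide CRAMP, had 360, 63.3 and 89.9 CPM in MDMA, 10.4, 15.4 and 109 CPM in psilocybin, 16.8, 8.67 and 1.02 CPM in vehicle and 2.03, 3.74 and 1.55 CPM in unstressed libraries. MDMA libraries again all lay above vehicle and unstressed libraries, and so did psilocybin libraries above unstressed ones. MDMA differed from vehicle by 4.07 ± 1.13 on the log2 scale (SE, edgeR adjusted p = 0.0871) and from unstressed by 6.03 ± 1.25 (SE, edgeR adjusted p = 0.0843).

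Ltf, whose product binds iron, had 287, 82.5 and 435 CPM in MDMA libraries, 7.99, 18.1 and 86.5 CPM in psilocybin, 0, 13.6 and 74.7 CPM in vehicle and 0, 4.49 and 5.11 CPM in unstressed libraries. Nearly all of the vehicle group's 157 Ltf counts lay in library 3, which had 146 of them and in which Ngp had only 9. Ltf was the gene for which psilocybin was closest to vehicle, with a log2 difference of -0.11 ± 1.42 (SE, edgeR adjusted p = 0.984), and this value was 2.92 without vehicle library 3. Lcn2, whose product binds bacterial siderophores, had 36.4, 14 and 23.2 CPM in MDMA, 5.92, 6.15 and 15 CPM in psilocybin, 0, 2.48 and 0 CPM in vehicle and 0, 1.5 and 0.888 CPM in unstressed libraries. All MDMA and all psilocybin libraries lay above all vehicle and unstressed libraries. The vehicle group held 2 Lcn2 counts, both in library 2, and the pooled level was 65.7 times higher in MDMA (95% counting interval 18 to 545) and 26.8 times higher in psilocybin (7.21 to 224), with edgeR adjusted p = 0.0991 and 0.214. These intervals leave out the spread between libraries. Without vehicle libraries 1 and 3, a choice made after seeing the data, the log2 difference from vehicle was 3.39 in MDMA and 2.01 in psilocybin.

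Among the calprotectin subunits was S100a9, the only gene of the 10 called by edgeR in any of the 6 comparisons. S100a8 had 497, 47.9 and 116 CPM in MDMA libraries, 25.2, 37.3 and 268 CPM in psilocybin, 4.42, 29.7 and 1.02 CPM in vehicle and 1.7, 2 and 1.55 CPM in unstressed libraries. Vehicle library 2 alone put the vehicle group's range across that of psilocybin. S100a9 had 253, 35.3 and 69.5 CPM in MDMA libraries, 13.9, 15.4 and 91.7 CPM in psilocybin, 9.38, 14.9 and 9.72 CPM in vehicle and 0.339, 0.748 and 1.11 CPM in unstressed libraries. Every stressed library lay above every unstressed library for S100a9, whose unstressed level rested on 1, 3 and 5 counts. S100a9 rose in the MDMA group against the unstressed group by 7.14 ± 1.18 on the log2 scale (SE, edgeR adjusted p = 0.0319), and S100a8 differed by 6.85 ± 1.36 (edgeR adjusted p = 0.0798). Psilocybin differed from unstressed by 5.64 ± 1.11 for S100a9 and 5.92 ± 1.30 for S100a8 (SE, edgeR adjusted p = 0.0808 and 0.125), and vehicle from unstressed by 3.99 ± 1.05 for S100a9 and 2.58 ± 1.18 for S100a8 (edgeR adjusted p = 0.0523 and 0.257). The 3 contrasts share the unstressed libraries. The S100a9 call for MDMA was lost in the fit without any 1 of the MDMA or unstressed libraries, with edgeR adjusted p of 0.082 to 0.227 without an MDMA library and of 0.215 to 0.244 when an unstressed library was left out, while the log2 difference stayed between 6.04 and 7.61.

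The late genes were scarce. Retnlg, a resistin-family protein secreted by neutrophils, had 38, 1 and 14 counts in MDMA, 15, 2 and 39 in psilocybin, 0 in each vehicle library and 6, 4 and 0 in unstressed libraries. Mmp8, the collagenase stored in granules, had 44, 2 and 150 counts in MDMA, 7, 6 and 32 in psilocybin, 0 in each vehicle library and 0, 25 and 2 in unstressed libraries. By counting error alone, a count of 0 over the vehicle group allows a level of up to 0.47 CPM, the level of 3 counts. Vehicle libraries 1 and 3 also had 149 and 211 genes with a mean of at least 50 CPM at 0. In vehicle library 2 alone, 3 counts are 3.71 CPM. The true vehicle level may thus lie above the floor of 0.47 CPM, and the folds against vehicle may be smaller than these bounds. Against that floor Retnlg was at least 8.04-fold higher in MDMA and at least 10.3-fold higher in psilocybin, and Mmp8 at least 29.7-fold and at least 8.28-fold higher. Their edgeR adjusted p ran from 0.11 (Mmp8 in MDMA) to 0.216 (Mmp8 in psilocybin), and MDMA library 2, with 1 and 2 counts, stood only just above 0. Against the floor the vehicle group was at least 1.61-fold lower than the unstressed group for Retnlg and at least 4.34-fold lower for Mmp8, and 25 of the 27 unstressed Mmp8 counts came from library 2.

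Against vehicle, every one of the 10 genes had a positive log2 difference in the MDMA group, with a median of 4.17 (3.69 with Retnlg and Mmp8 at their bounds) against 0.24 over all genes tested. None passed the edgeR test, with adjusted p from 0.0871 for Camp to 0.41 for Ltf, in a comparison in which 0.674% of all genes passed. An unadjusted p under 0.05 was reached by 8 of the 10, all higher in MDMA, against 13.3% of all genes. All MDMA libraries lay above all vehicle libraries for 9 of the 10, the exception being Mpo, against 16.8% of all genes. For Retnlg and Mmp8 this rested on 1 and 2 counts in MDMA library 2 against 0 in the vehicle libraries. Both levels are below 3.71 CPM, the level of 3 counts in vehicle library 2, so these separations are not resolved. DESeq2 called 7 of the 10, all but Elane, Ltf and Retnlg (9.6% of all genes), and limma voom called 3, namely Mpo, Camp and Lcn2 (6.36% of all genes). Without vehicle library 2 edgeR called Mpo, Ngp, Lcn2 and S100a8, in a fit that called 25% of all genes.

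Psilocybin against vehicle gave a positive log2 difference for 9 of the 10 genes, with a median of 2.20 against 0.308 over all genes. None passed the edgeR test and 0.0143% of all genes did (none with the replicate number as a block), 4 genes (Lcn2, S100a8, Retnlg and Mmp8) had an unadjusted p under 0.05, all higher (12.1% of all genes), and limma voom called 0 of the 10 (3.13% of all genes). DESeq2 called 1 of them, Lcn2 (7.61% of all genes), and edgeR without vehicle library 2 called Lcn2 and S100a8 (24.5% of all genes). All psilocybin libraries lay above all vehicle libraries for Lcn2, Retnlg and Mmp8, against 20.8% of all genes. Psilocybin library 2 had 2 counts of Retnlg and 6 of Mmp8, against 0 in the vehicle libraries. Both levels are below the 3.71 CPM of 3 counts in vehicle library 2, so these separations are not resolved. MDMA and psilocybin were each set against the same vehicle libraries. Between the drugs, MDMA over psilocybin gave a positive log2 difference for 9 of the 10, with a median of 1.77 against -0.02 over all genes. The groups overlapped for all 10, whereas all MDMA libraries lay above all psilocybin libraries for 8.33% of all genes. No gene passed (0% of all genes), 1 of the 10, Ngp, had an unadjusted p under 0.05 (0.344% of all genes, higher; log2 difference 2.16 ± 0.94, SE), and DESeq2 and limma voom called 0. The differences between the drugs ran from -0.22 ± 1.36 for Retnlg to 2.77 for Ltf on the log2 scale, with SEs from 0.904 to 1.61, so differences of this size were not resolved by 3 libraries a group.

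**Figure D3:**
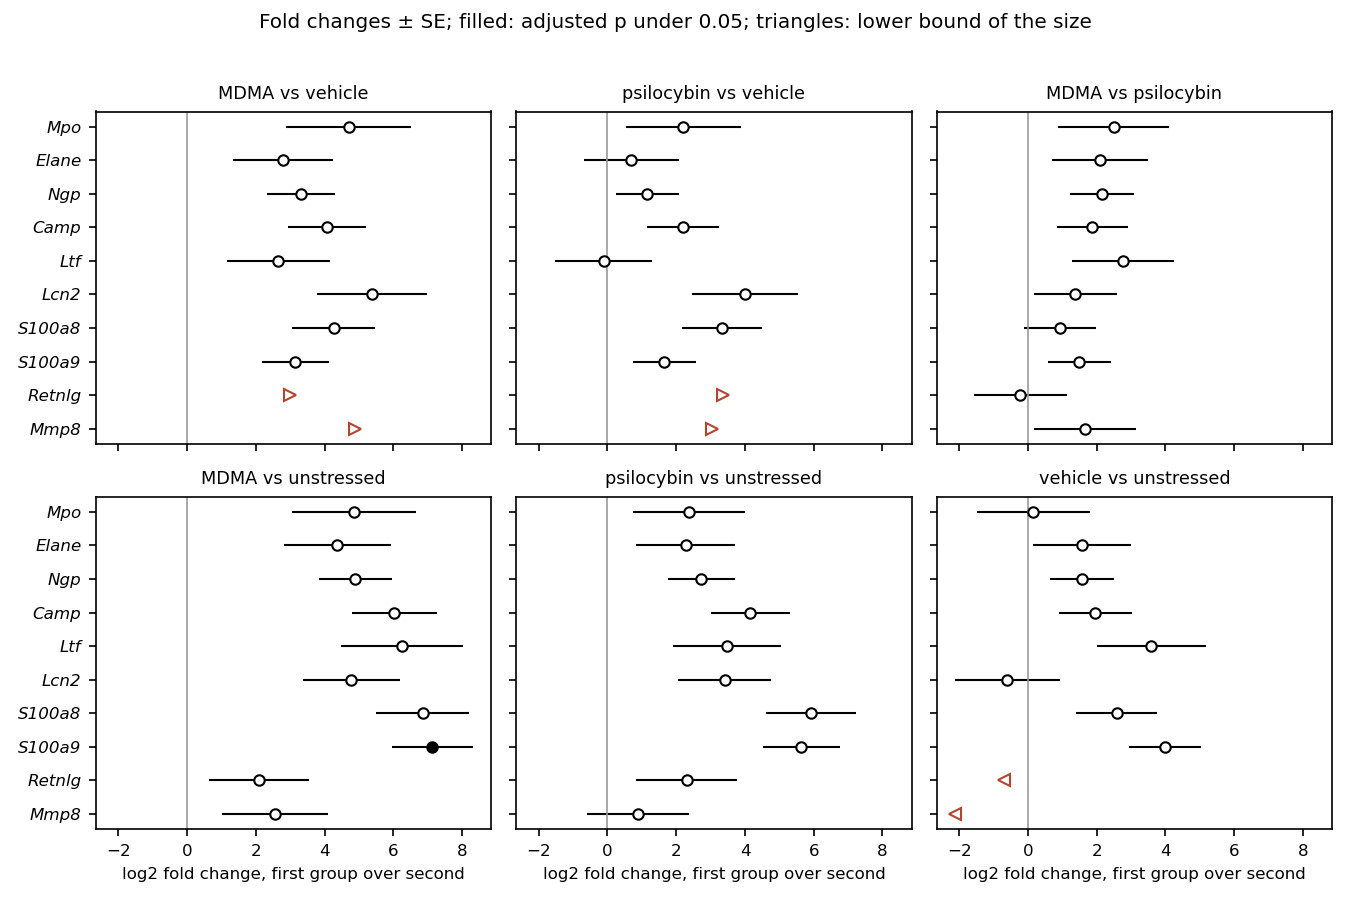
Log2 fold change of each gene in the 6 comparisons (horizontal axis, first-named group over second), with bars of 1 SE, a filled point where the edgeR adjusted p was under 0.05, and open triangles for the bounds of Retnlg and Mmp8 against a vehicle group at 0. The filled point is S100a9 in MDMA vs unstressed, at 7.14, and all 10 points of that panel lie right of 0.

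Vehicle against unstressed, groups that differ in restraint, in the vehicle given and in the annotation used for counting, gave a positive log2 difference for 7 of the 10 genes, with a median of 1.58 against -0.18 over all genes. None passed the edgeR test, where 3.43% of all genes did, nor the limma voom test (10.1% of all genes), and 4 genes had an unadjusted p under 0.05, 3 of them higher in vehicle (Ltf, S100a8 and S100a9; 4.41% of all genes) and Mmp8 lower. S100a9 was the only one of the 10 whose vehicle libraries all lay above the unstressed libraries, which 2.77% of all genes did, and it passed in DESeq2 (12.6% of all genes) and in edgeR without vehicle library 2 or 3, with adjusted p = 0.0202 and 0.0465 (25.4% and 6.8% of all genes). Its exons are nearly the same in both annotations. Lcn2 rested on 2 counts in vehicle libraries and 10 in unstressed libraries, a pooled level 2.41 times higher in unstressed (95% counting interval 0.514 to 22.7).

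MDMA against unstressed had the largest median among the 6 comparisons, 4.87 against 0.037 over all genes, with 10 of the 10 genes positive. S100a9 was the 1 gene called, where 0.122% of all genes were (0.0359% higher in MDMA), and 8 of the 10 had an unadjusted p under 0.05, all higher (2.27% of all genes). DESeq2 called 7 of the 10, all but Mpo, Retnlg and Mmp8 (1.57% of all genes), and limma voom called 5 (1.06%). All MDMA libraries lay above all unstressed libraries for 8 of the 10, all but Retnlg and Mmp8, against 11.7% of all genes. The vehicle libraries share the estimate of spread in this fit, and leaving them out also changed the scaling and the set of genes tested. Without vehicle library 1, 2 or 3 edgeR called 3, 2 and 4 of the 10 (0.41%, 0.304% and 0.717% of all genes). It called Ngp, Camp, Ltf, Lcn2, S100a8 and S100a9 without the vehicle group (3.01% of all genes), or without vehicle libraries 1 and 3, a choice made after seeing the data (2.7% of all genes). The cause of these changes was not tested. Of the 6 genes called without the vehicle group, Ngp and S100a9 have nearly the same exons in both annotations. For the other 4 the annotation is a further difference between the groups. For all 6, the restraint, the drug and the separate counting of the unstressed libraries cannot be told apart. Psilocybin against unstressed gave 10 positive differences with a median of 3.07 against 0.015 over all genes. There none passed the edgeR test (0.0861% of all genes did) or limma voom (0.861% did), 6 had an unadjusted p under 0.05, all higher (3.3% of all genes), and DESeq2 called Camp, S100a8 and S100a9 (1.76% of all genes). All psilocybin libraries lay above the unstressed ones for Camp, Ltf, Lcn2, S100a8 and S100a9, against 18.3% of all genes. Without the vehicle group edgeR called 4 of the 10, Camp, Lcn2, S100a8 and S100a9, with 5.4% of all genes. A test of any difference among the 4 groups called S100a9 (edgeR adjusted p = 0.0401, with 0.581% of all genes called), and all 10 genes had an unadjusted p under 0.05 in it, against 14.4% of all genes. The call held without any 1 vehicle library (edgeR adjusted p = 0.0112 to 0.0314) or psilocybin library 3 (0.044) and was lost without any 1 of the other 8 libraries (0.069 to 0.188). DESeq2 called 6 of the 10 in the same test, in which it called 10.2% of all genes, and limma voom called 4 (5.94%).

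**Figure D4:**
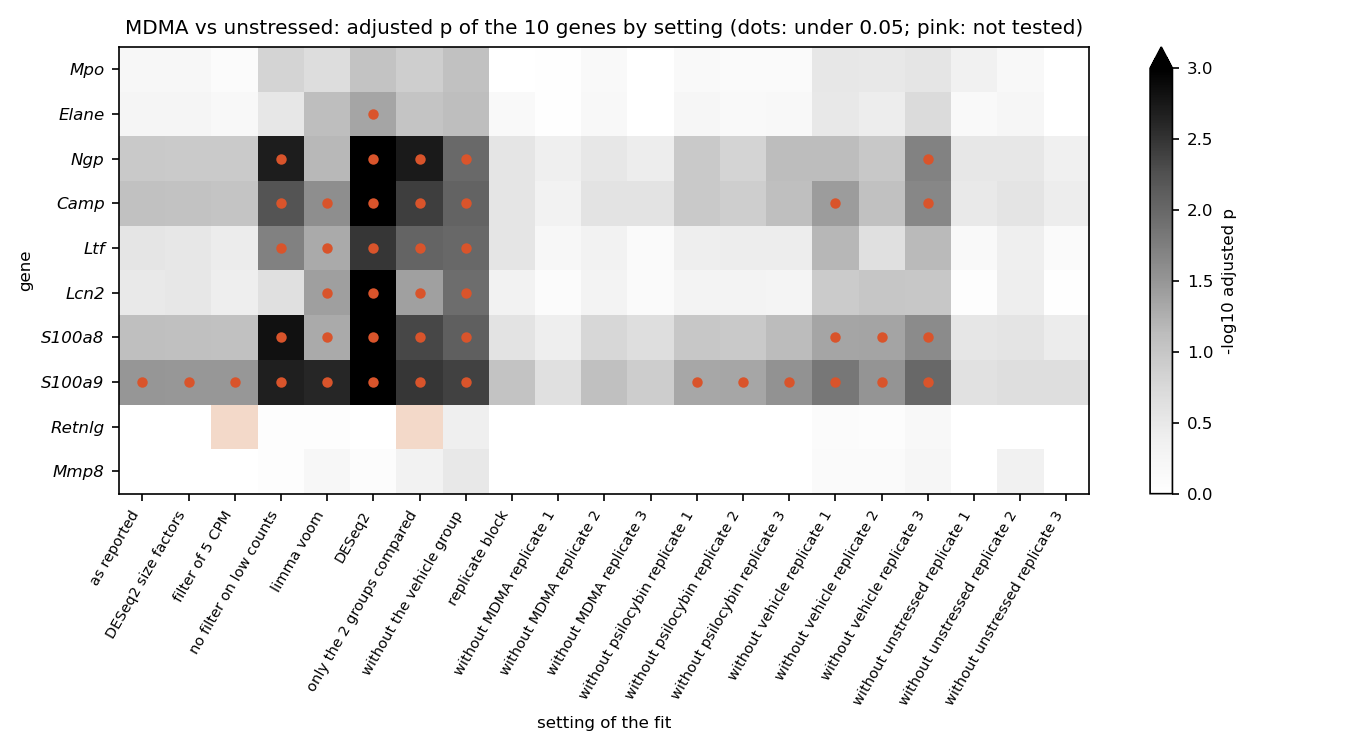
The -log10 of the adjusted p of each gene (rows) in MDMA vs unstressed under the settings of the fit named below the columns, with dots where the adjusted p was under 0.05 and pink where the gene was not tested. S100a9 carries a dot as reported and without any 1 vehicle or psilocybin library, loses it without any 1 MDMA or unstressed library, and is joined by Ngp, Camp, Ltf, Lcn2 and S100a8 when the vehicle group is left out.

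The mix of early, specific, calprotectin and late transcripts differed between libraries with high sums. Levels were set per kilobase of RefSeq exon to compare genes, a length that is too short for some genes of the stressed libraries, so shares compare most directly among these 9. Calprotectin genes made up 49.7%, 30.5% and 22.6% of the summed level per kilobase in MDMA libraries 1, 2 and 3, against 57.8%, 51.1% and 57% in psilocybin, 19.7%, 41.6% and 38.6% in vehicle and 8.98%, 15.4% and 24.3% in unstressed libraries. By these lengths, every psilocybin library had a larger calprotectin share than any other library, with 51.1% in psilocybin library 2 close to 49.7% in MDMA library 1. The early genes made up 3.47%, 3.69% and 16.1% in MDMA, 2.58%, 7.18% and 4.28% in psilocybin, 8.92%, 8.93% and 1.38% in vehicle and 26.1%, 0.694% and 8.75% in unstressed libraries. The 26.1% of unstressed library 1 came from 56 Mpo and 19 Elane counts, in a library with 193 counts of the 10 genes. MDMA library 3, with 11815 counts of the 10 genes, thus held an early share of 16.1% where MDMA library 1, with 9558, held 3.47%. Set against S100a8, the level of Mpo per kilobase was 0.0429, 0.0663 and 0.634 in MDMA, 0.038, 0.0873 and 0.0453 in psilocybin, 0, 0.135 and 0.077 in vehicle and 1.72, 0.0577 and 0.066 in unstressed libraries.

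**Figure D5:**
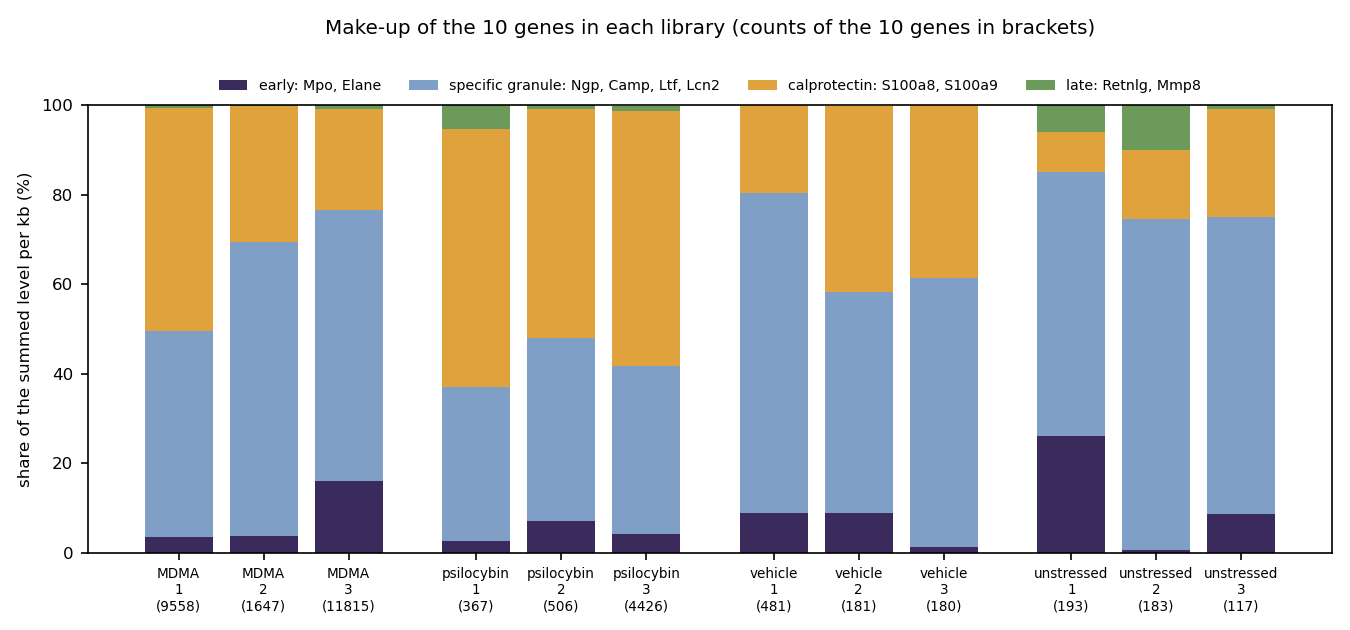
Share of the summed level per kilobase taken by early, specific granule, calprotectin and late genes (vertical axis, %) in each library (horizontal axis), with the counts of the 10 genes in brackets. By RefSeq length, the early share reached 16.1% in MDMA library 3, and calprotectin took over 50% only in the 3 psilocybin libraries. The S100a8 length used, 392 bases, is shorter than the 694 of GENCODE, so the calprotectin shares of the stressed libraries may be too high.

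Per kilobase of RefSeq exon, S100a8 was above S100a9 in most libraries, although the proteins pair. The ratio was 2.63, 1.81 and 2.24 in MDMA, 2.42, 3.24 and 3.91 in psilocybin, 0.629, 2.67 and 0.141 in vehicle and 6.68, 3.56 and 1.87 in unstressed libraries. The 2 libraries below 1 were vehicle libraries 1 and 3, with 16 and 2 counts of S100a8. S100a8 has 694 exonic bases in GENCODE and 392 in RefSeq, so the ratio can be compared between stressed libraries but not between stressed and unstressed ones. Over GENCODE exons it would be lower in every stressed library, so its distance from 1 there is not settled.

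By mean level per kilobase, the MDMA group ran Ngp (651 ± 343 CPM per kilobase, SD, n = 3), S100a8 (563 ± 618), Camp (285 ± 274), S100a9 (228 ± 224), Ltf (97.8 ± 64.5), Mpo (83.6 ± 93.5), Elane (66.9 ± 51.5), Lcn2 (28.8 ± 13.2), Retnlg (7.53 ± 8.87) and Mmp8 (5.74 ± 5.84). Of these neighbours, only Lcn2 and Retnlg differed by more than the larger of their SDs, and their ranges still overlapped. That step used the RefSeq length of Lcn2, 853 bases, against 2623 in GENCODE. S100a8 came first in the psilocybin group (281 ± 350), ahead of Ngp (140 ± 168), and no step in that group or in the vehicle group was larger than the larger SD. In the unstressed group Ngp (20.7 ± 9.1) stood above the other genes, from S100a8 (4.46 ± 0.575) downwards, with no overlap between those 2.

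Other genes of the neutrophil program were followed in lists. Of 6 further genes listed for the azurophil stage, not all of them granule proteins, 5 were tested and none passed in any of the 6 comparisons. Their median log2 difference in MDMA against vehicle was 2.96, the value of Ms4a3 with 3 vehicle counts, with 4 of 5 positive. The most abundant of them were Igsf6, a receptor of myeloid cells, and Nkg7, which is also made by cytotoxic lymphocytes. Igsf6 had 146, 7 and 353 counts in MDMA libraries and 317, 22 and 2 in vehicle libraries, so its groups overlapped. The granule proteases Prtn3 and Ctsg, named after their values were seen, had 188 and 133 counts in the MDMA group. They had 0 and 2 in the vehicle group (edgeR adjusted p = 0.116 and 0.324). Of 12 further specific granule genes, 11 were tested and none passed, with a median of 1.86 in MDMA against vehicle (11 of 11 positive) and 0.569 in psilocybin against vehicle (6 of 11). Lyz2, lysozyme, which macrophages make too, had 2358, 1067 and 3826 counts in MDMA and 1177, 218 and 443 in vehicle libraries, a log2 difference of 0.87 ± 0.60 (SE, edgeR adjusted p = 0.52). Anxa1, which encodes annexin A1, differed by 1.86 ± 0.65 (SE, edgeR adjusted p = 0.147), with 1643, 697 and 1694 counts in MDMA and 87, 116 and 160 in vehicle libraries.

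Genes of the mature neutrophil varied in level, and some were too scarce to test. Of 12 gelatinase granule and late genes 7 passed the filter, and of 12 mature receptor genes 7 did. Ly6g, the surface marker of mouse neutrophils, had 2, 0 and 3 counts in MDMA, 1, 0 and 0 in psilocybin, 0 in each vehicle library and 0, 3 and 0 in unstressed libraries. Cxcr2, the chemokine receptor of circulating neutrophils, had 5, 0 and 3 counts in MDMA, 2, 1 and 6 in psilocybin, 0 in each vehicle library and 7, 2 and 1 in unstressed libraries. Both were chosen after their values were seen. Other genes of these lists had more counts, such as Clec4e with 266 and Slpi with 170 in the MDMA group. None of the 7 tested gelatinase and late genes passed, with a median of 4.25 in MDMA against vehicle (6 of 7 positive) and -2.55 in vehicle against unstressed (1 of 7). The first median was the value of Slpi, with 3 vehicle counts, and the second that of Padi4, with 2. Hdc, which makes histamine and is also expressed in mast cells and basophils, had 120, 45 and 153 counts in MDMA and 3, 0 and 5 in vehicle libraries (log2 difference 3.98 ± 1.14, SE, edgeR adjusted p = 0.0934). Wfdc17, a whey acidic protein family member, had 31, 5 and 20 counts in MDMA and 57, 1 and 0 in vehicle libraries. None of the 7 tested receptor genes passed, with a median of 3.26 in MDMA against vehicle (7 of 7), the value of Il1r2 with 2 vehicle counts. Ptafr, the receptor of platelet-activating factor, had 94, 0 and 25 counts in MDMA and 2, 1 and 20 in vehicle libraries.

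Of 8 transcription factors of granulocyte development, 7 were tested and none passed, with a median of 3.79 in MDMA against vehicle (7 of 7 positive) and -1.45 in vehicle against unstressed (2 of 7). Over all genes tested the medians were 0.24 and -0.18. The 3.79 was the value of Cebpe, with 2 vehicle counts, and Cebpa, Spi1 and Klf5 had 0, 1 and 5. Cebpd, Cebpb and Runx1, with 560, 390 and 259 vehicle counts, differed by 0.63, 0.23 and 0.18 between MDMA and vehicle. Cebpd had 545, 313 and 893 counts in MDMA libraries, 306, 301 and 758 in psilocybin, 409, 89 and 62 in vehicle and 97, 338 and 183 in unstressed libraries. Cebpb, which many cell types induce, had 59, 472 and 455 counts in MDMA, 17, 77 and 76 in psilocybin, 185, 72 and 133 in vehicle and 450, 1364 and 690 in unstressed libraries. Of 6 genes for receptors of calprotectin and their partner proteins, 5 were tested and none passed, with a median of -0.37 in MDMA against vehicle (2 of 5 positive) and -0.56 in MDMA against unstressed (1 of 5). Bsg, which encodes basigin, an abundant protein of brain barriers, differed by -0.99 ± 0.48 between MDMA and vehicle (SE, edgeR adjusted p = 0.322), and Cd36, a scavenger receptor, by -0.37 ± 1.14 (edgeR adjusted p = 0.921). Of 8 other S100 genes, 7 were tested and none passed, with a median of 0.548 in MDMA against vehicle, 1.26 in psilocybin against vehicle and -0.89 in MDMA against psilocybin (1 of 7 positive). S100a1, the most abundant of them, had 583, 267 and 308 counts in MDMA, 763, 594 and 778 in psilocybin, 876, 78 and 50 in vehicle and 174, 646 and 423 in unstressed libraries, and S100a16 differed by 1.14 ± 0.73 between MDMA and vehicle (SE, edgeR adjusted p = 0.487).

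The 10 genes followed much the same profile over the 12 libraries. The Pearson correlation of each with their mean standardized log2(CPM + 1) profile, of which each is itself a part, ran from 0.739 for Retnlg to 0.965 for S100a8. Among 11695 other genes, the highest correlations with that profile belonged to Fcnb (0.929), a ficolin of myeloid cells, Cldn11 (0.914), a claudin of the arachnoid and of myelin, Clec4e (0.913), a C-type lectin receptor, Slpi (0.912), a protease inhibitor, and Prg2 (0.908), the eosinophil major basic protein. Car1 (0.905), a carbonic anhydrase of erythroid cells, Kctd8 (0.876), Ybx1 (0.868), Efemp1 (0.863) and Nusap1 (0.861), a mitotic spindle protein, completed the 10. Slpi and Clec4e also stand in the lists of late and receptor genes above. These are descriptions over 12 libraries that share group, library and depth. Fcnb averaged 22.8 ± 17.8 CPM in MDMA, 3.3 ± 4.79 in psilocybin, 0.46 ± 0.797 in vehicle and 0.0831 ± 0.144 in unstressed libraries (SD, n = 3 each). Cldn11 averaged 168 ± 63.3 CPM in MDMA, 107 ± 38.1 in psilocybin, 68.6 ± 16.2 in vehicle and 67.8 ± 14.1 in unstressed libraries, a smaller fold range than that of Fcnb.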

How the data were processed

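The values used were gene counts of 12 bulk RNA sequencing libraries, 3 in each of 4 groups taken from the sample titles. The authors deposited raw whole-number read counts for each gene. The submitters' processing notes name mm10, STAR 2.7.5c, featureCounts 2.0.1, edgeR 3.42.4, fastp 0.23.2 and 2 quality report tools. Per the file headers, featureCounts made the unstressed counts over exons by gene in a RefSeq annotation, with no strand option recorded. The stressed libraries carry Ensembl identifiers, and no source used here gives their release or command. The whole-series table repeated the 9 stressed libraries, and its 3 columns of no sample here were left out. RNA was made into libraries with a NEBNext kit, per the labels' protocols.

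The files were joined on GENCODE vM21 for GRCm38: 26664 genes by symbol and 910 by exon overlap, with 94.798% to 99.093% of each library's counts. Nearly the same exons means a Jaccard index of at least 0.9 and own lengths within 1.1 times. CPM in the text are counts over each library's deposited total, rounded to 3 significant digits. Counts were tested with edgeR 4.0.16 in R 4.3.3 (TMM scaling, filterByExpr, quasi-likelihood test of all 12 libraries, Benjamini-Hochberg adjustment over 13944 genes, threshold 0.05), after a check on simulated data. Log2 differences come from that fit with SEs from its test statistic. Where a group was at 0, the fold is a bound against 3 counts over that group, pooled per scaled library size, and 1 to 3 counts gave a ratio with an exact Clopper-Pearson 95% interval. Levels per kilobase use RefSeq exon length. Alternatives were DESeq2 1.42.0 and its size factors, limma 3.58.1 voom, other filters, a replicate block, subsets of genes or groups, and leaving out libraries.

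Replicate numbers come from the titles, which do not say what they mark. Only between psilocybin and vehicle was each library closest to the one of its own number in its deviations from the group mean. The Pearson correlations over genes were low (0.112, 0.213 and 0.115) and do not show that the libraries were paired. The replicate block is therefore given as an alternative only. In none of the 12 pairs of libraries within a group did counts agree within counting noise (chi-square per gene of 14 or more). Promoters are from RefSeq, and all 10 genes had one.

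The 10 genes, the gene lists, the marker lists and the motifs were chosen with earlier results of these data known. All 10 genes are named. Of each related list, members that passed would be named first, and as none passed, the 2 of highest mean CPM are, except that 1 such gene is not reported here. The genes most like the 10 are the 10 others with the highest Pearson correlation among tested genes with a mean of at least 5 CPM.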

Additional observations from a re-analysis of the deposited data

How the results depend on the processing

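Of 60 gene results (10 genes in 6 comparisons), 53 kept their sign under every alternative run. Over 1272 alternative values, 1169 stayed on their side of the threshold with the same sign, 76 newly passed, 8 no longer passed (S100a9 in MDMA against unstressed) and 19 changed sign, none of these past the threshold. The cause of these changes was not tested. Of the 10 genes, the number called in MDMA against vehicle, 0 in edgeR, was 2 with no filter on low counts (0.478% of all genes called), 7 in DESeq2 (9.6%) and 3 in limma voom (6.36%), and 0 to 4 when 1 library was left out (4 without vehicle library 2, 25%). In psilocybin against vehicle it was 0, with 1 in DESeq2 (7.61%) and 0 to 2 when 1 library was left out (2 without vehicle library 2, 24.5%). In vehicle against unstressed it was 0, with 1 in DESeq2 (12.6%) and 0 to 1 (1 without vehicle library 2 or 3, 25.4% and 6.8%). In MDMA against psilocybin it was 0 under every alternative. In MDMA against unstressed it was 1, with 5 without a filter (0.308%), 7 in DESeq2 (1.57%), 5 in limma voom (1.06%), 0 among genes with nearly the same exons (0 of 2450 genes called, 5 of the 10 tested), 6 with only these groups fitted (1.76%), 6 without the vehicle group (3.01%), 6 without vehicle libraries 1 and 3 (chosen after seeing the data, 2.7%) and 0 to 4 when 1 library was left out. In psilocybin against unstressed it was 0, with 2 without a filter (0.241%), 3 in DESeq2 (1.76%), 3 with only these groups fitted (10.3%), 4 without the vehicle group (5.4%), 4 without vehicle libraries 1 and 3 (4.92%) and 0 to 2. In the test of any difference it was 1, with 6 without a filter (1.32%), 6 in DESeq2 (10.2%), 4 in limma voom (5.94%), 0 among genes with nearly the same exons (0 of 2450), 6 without vehicle libraries 1 and 3 (3.71%) and 0 to 6.

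With the replicate number as a block, the count of all genes called in psilocybin against vehicle went from 2 to 0 and that of the 10 genes stayed at 0. The block gave 0 of the 10 in MDMA against unstressed, 0 in any difference and 0 elsewhere. Whether the numbers pair any libraries is not known. Single signs turned as follows, with ranges over fits without 1 library each. In psilocybin against vehicle, Elane ranged from -0.702 (without psilocybin library 3) to 1.37, Ngp from -0.462 (without psilocybin library 3) to 1.65 and Ltf from -1.57 (without psilocybin library 3) to 2.92 (without vehicle library 3), and Ltf was 2.03 in limma voom, 0.579 with the replicate block and 1.60 without vehicle libraries 1 and 3. In MDMA against psilocybin, S100a8 ranged from -0.422 (without MDMA library 1) to 2.69, and Retnlg from -1.71 to 0.605, with a positive sign without MDMA library 2 or 3 or psilocybin library 3. In vehicle against unstressed, Mpo ranged from -4.53 (without vehicle library 2) to 3.41 (without unstressed library 1) and was -0.456 in limma voom, and Lcn2 ranged from -4.57 (without vehicle library 2) to 0.247 (without vehicle library 1) and was 1.40 without vehicle libraries 1 and 3. The late genes lay near the floor, as 3 counts are 3.71 CPM in vehicle library 2, above the level of Retnlg in 9 of the 12 libraries. In vehicle libraries 1 and 3, where 3 counts are 0.828 and 1.54 CPM, Retnlg and Mmp8 were at 0 too. The cause of these zeros was not tested.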
